A study of Mus musculus with 4 samples.

Results

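Noncycling B cells of mouse subcutaneous adipose tissue (SAT) are described here from single-cell RNA-seq, as 1120 of the 4738 SAT cells that had 200 or more genes detected. The cells were chosen by their own counts of unique molecular identifiers (UMIs), each of which marks 1 captured RNA molecule. A B cell had to have 3 or more UMIs of Cd79a, Cd79b and Ms4a1 together, with at least 2 of these genes detected, no UMI of Cd3d, Cd3e, Cd3g, Mki67 or Top2a, and at most 1 of Lyz2. The control library held 557 such cells among 2841 and the D-CAN library held 563 among 1897. Because these measured counts chose the cells, the genes of this rule are not results, and a comparison of these cells with other cells of the same libraries is a description.

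The study followed grafts of MycCaP, a cell line from mouse prostate cancer, under the skin of mice given either PBS (control) or D-CAN, and asked how D-CAN changes the cells of the tumor and of the adipose tissue. D-CAN joins a peptide that binds adipose stromal cells to an amphipathic sequence made of D-amino acids, and it is described as depleting those cells. The genotype in the sample labels is VFB, the study names FVB mice fed chow, and both groups carried a graft, so no SAT library is from a mouse without a tumor. SAT was taken as a stromal and vascular suspension after removal of dead and red blood cells, and 1 10x Chromium 3′ library was made per tissue and treatment. The age of the mice and the number pooled into a library were not given in the sources used here. With 1 library per group there is no replicate, so no p-value is given, and every interval covers counting error at 95% only. Over the whole series 8986 cells had 200 or more genes, and the same rule found no B cell among 2761 control and 1487 D-CAN tumor cells, where a count of 0 allows shares of up to 0.109% and 0.202%.

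B cells are the lymphocytes that carry an immunoglobulin on their surface as antigen receptor. CD79A and CD79B form the signalling part of that receptor, and MS4A1 is the surface protein CD20. Naive B cells carry IgM and IgD and move between blood, spleen and lymph nodes, whereas activated B cells may divide in germinal centres, change the class of their heavy chain and become plasma cells that secrete antibody. Adipose tissue holds resident and passing B cells, and the inguinal fat pad also encloses a lymph node.

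The rule fixed the levels of its own marker genes, so the label was checked on other genes. UMIs of the 3 rule genes summed to a median of 8 per control cell and 9 per D-CAN cell, with highest sums of 49 and 44, and 74.0% of control and 74.4% of D-CAN cells had all 3 genes. Ighm, which encodes the constant region of the IgM heavy chain and was not part of the rule, had a UMI in 90.5% of control and 95.6% of D-CAN cells. In T cells, taken as cells with 2 or more Cd3 UMIs and no B marker or Lyz2, Ighm had a UMI in 31.7% and 28.9%. Its detection alone therefore does not mark a B cell, and the source of these UMIs in T cells was not tested. At the lower edge of the rule, 54 control and 19 D-CAN cells had exactly 3 marker UMIs, and Ighd was detected in 70.4% and 89.5% of them. Just outside it, 36 control and 12 D-CAN cells had 2 marker UMIs over 2 genes and met the other terms, and Ighd was detected in 47.2% and 66.7% of those. Of the cells that carried the markers, 32 control and 20 D-CAN cells were set aside for a Cd3 UMI, 4 and 4 for Lyz2, and 40 and 22 for Mki67 or Top2a.

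Depth differed between the libraries. A control B cell held a median of 2048 UMIs (range 500 to 13214) and 804 genes, and a D-CAN B cell a median of 2619 UMIs (range 507 to 21459) and 950 genes. Together the B cells held 1247405 control and 1601202 D-CAN UMIs, and mitochondrial genes gave a median of 5.94% and 6.61% of the UMIs of a cell. Levels are therefore given as CPM, the UMIs of a gene summed over all B cells of a library and scaled to a total of 1000000, and shares of cells with a transcript were taken after each cell was thinned at random to 1000 UMIs, which kept 533 control and 548 D-CAN B cells. The 3′ assay counts molecules and not fragments along them, so CPM do not scale with gene length. The SAT libraries shared 2 cell barcodes, 1 of them of a B cell. Ptprc, the gene of the leukocyte antigen CD45, had no UMI in 28.2% of control and 29.5% of D-CAN B cells, although every B cell counts as a leukocyte below. No doublet caller was used and no doublets were removed, although the rule drops cells that also hold Cd3 UMIs or several UMIs of Lyz2.

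The B lineage genes were all measured and stood at nearly the same level in both libraries. None of the 19 listed genes differed 1.5-fold between D-CAN and control B cells, and their median log2 ratio was 0.03. Across all 2971 genes with 100 or more UMIs the median was -0.01, with 105 (3.53%) at least 1.5-fold higher and 80 (2.69%) at least 1.5-fold lower in D-CAN. With libraries scaled by the median of ratios these were 136 and 61, and the median of all genes was 0.05. Ebf1, a transcription factor that starts the B cell program, was the most abundant of them at 1915 CPM in control and 2004 CPM in D-CAN. Pax5, the factor that keeps B cell identity, stood at 285 and 292 CPM. Their log2 ratios were 0.07 for Ebf1 and 0.03 for Pax5, and both intervals include 0.

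Detection separated these cells from the other classes of the tissue. At 1000 UMIs per cell, Pax5 was found in 25.3% of control and 29.0% of D-CAN B cells, against 0.19% and 0% of T cells. Ighd was found in 64.9% and 66.2% of B cells, against 0.58% and 0.70% of T cells. Ebf1 was shared with nonimmune cells, since it was also found in 50.9% of control stromal cells, taken as cells with 2 or more Dcn UMIs and no Ptprc, and in 47.7% of control endothelial cells, taken on Pecam1 and Cdh5. Trbc2, a constant gene of the T cell receptor, was found in 0.94% and 1.09% of B cells and in 70.0% and 74.0% of T cells.

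**Figure D1:**
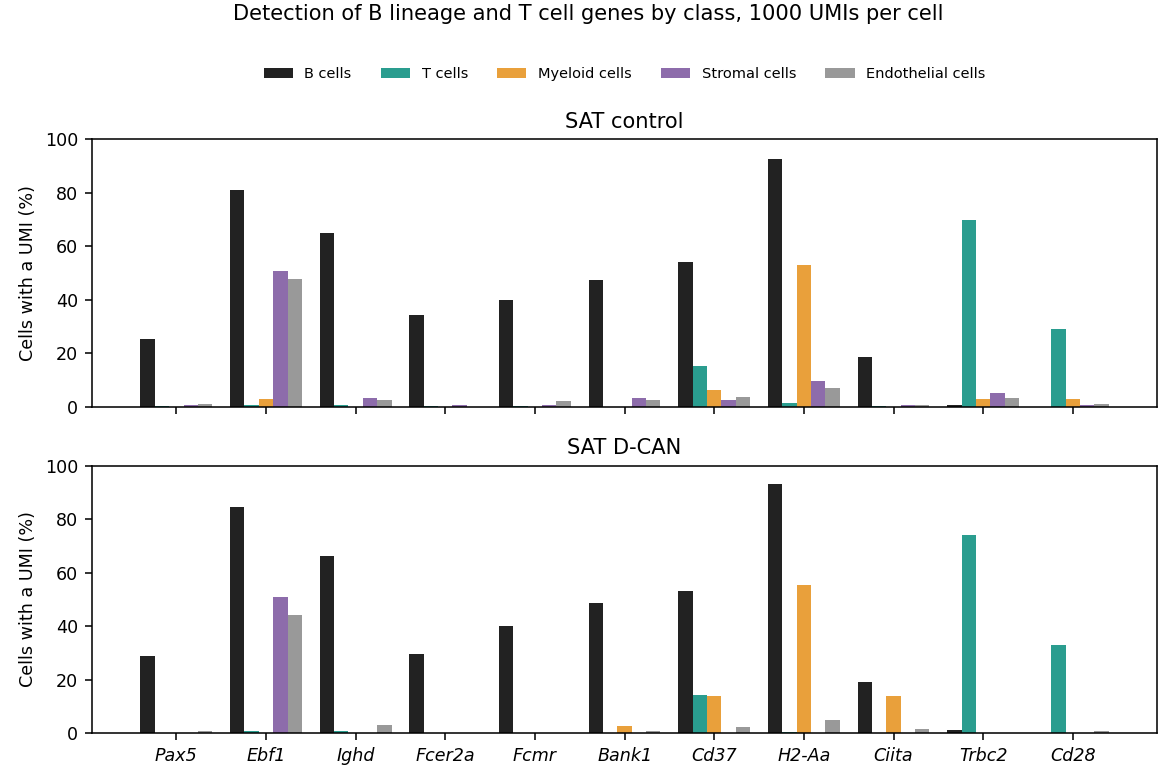
Share of cells with at least 1 UMI (vertical axis, percent) of 9 B cell or antigen presentation genes and 2 T cell genes (horizontal axis), with every cell thinned to 1000 UMIs, in SAT control (top) and SAT D-CAN (bottom). Bars stand for B, T, myeloid, stromal and endothelial cells. Ighd was detected in 64.9% of control and 66.2% of D-CAN B cells and in under 4% of every other class shown, whereas Ebf1 was also detected in 50.9% of control stromal cells and H2-Aa in 53.1% of control myeloid cells.

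Set against the other leukocytes, which are all remaining SAT cells with a Ptprc UMI (928 control and 859 D-CAN cells), all 19 B lineage genes were at least 2-fold higher in B cells in both libraries, with median log2 ratios of 2.73 in control and 3.13 in D-CAN. Over 4309 genes measured, 5.08% were at least 2-fold higher and 8.26% at least 2-fold lower in B cells in both libraries. These counts describe how the cells were chosen. The other leukocytes also hold the cycling cells with B markers and B cells with too few marker UMIs, so the ratios are lower than against a class free of B cells. Outside the rule, the genes that ranked highest over other leukocytes were Ighd at log2 3.94 and 4.05, Bank1, an adaptor of the antigen receptor, at 3.86 and 3.87, Fcmr, the receptor for IgM, at 3.79 and 3.95, and Fcer2a, the low affinity receptor for IgE, at 3.69 and 3.90. Siglecg, an inhibitory receptor that binds sialic acid, stood at 3.09 and 3.61, and Bcl11a, a transcription factor of lymphoid development, at 2.99 and 3.05. At the other end, S100a8 of neutrophils had no UMI in any B cell, against 605 CPM in control and 1169 CPM in D-CAN other leukocytes, and Cd6, a T cell surface receptor, also had none.

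Genes of antigen receptor signalling were also level between the libraries. Of 20 listed genes, 18 had 100 or more UMIs, and only Nfatc1 passed 1.5-fold, at log2 0.61 (interval 0.14 to 1.10). That is 1 of 18 higher, near the 3.53% of all genes. NFATc1 is a transcription factor switched on by calcium downstream of the receptor. Syk, the first kinase of the cascade, stood at 217 CPM in control and 246 CPM in D-CAN, and Blnk, the adaptor that it phosphorylates, at 176 and 207 CPM. Btk, a later kinase, had 69.7 and 49.3 CPM, a log2 ratio of -0.50 that stays inside 1.5-fold. The median of the 18 genes was 0.03.

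Most of these B cells carried transcripts of follicular B cells. Ighd, which marks mature naive cells, stood at 1078 CPM in control and 1123 CPM in D-CAN. Fcer2a, the gene of CD23, stood at 422 and 353 CPM, and Cr2, the complement receptor CD21 that is most abundant on marginal zone cells, at 286 and 248 CPM. Among the other 7 genes of the marginal zone list, none had 100 UMIs, Myof had none, and S1pr3 had 9 and 11 UMIs. B-1 cells, the innate-like B cells that are known from body cavities and their fat, left little trace by transcript, since none of 8 listed genes reached 100 UMIs and no B cell held 3 or more of them. Cd5 had 0 control and 4 D-CAN UMIs, Zbtb32 and Pstpip2 had none, and Bhlhe41 had 8 and 9. Of the atypical or memory list, 2 of 9 genes were measured, Hhex at 93 and 91.8 CPM and Zeb2 at 40.1 and 40.0 CPM. Of the transitional list, 4 of 7 genes were measured, with Cd24a at 247 and 293 CPM and Ms4a4c, a gene of the same family as Ms4a1, at 142 and 88.1 CPM (log2 -0.69, interval -1.02 to -0.36). It was the only one of the 4 past 1.5-fold, against 2.69% of all genes lower.

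Germinal centre genes were rare in the noncycling cells. None of 10 listed genes reached 100 UMIs, 90.7% of control and 90.9% of D-CAN B cells had no UMI of any of them, and 6 and 4 cells had 3 or more of the genes. The 40 control and 22 D-CAN cells that passed the rule except for Mki67 or Top2a were different in level. Rgs13, a regulator of chemokine receptor signalling in germinal centre B cells, stood at 305 and 252 CPM in those cycling cells and at 20.8 and 11.2 CPM in the noncycling B cells. Mef2b, a transcription factor of germinal centre B cells, stood at 137 and 75.5 CPM in the cycling cells and at 6.41 and 3.75 CPM in the noncycling ones. Ighd went the other way, with 175 and 321 CPM in the cycling cells. Of the cycling cells, 18 of 40 in control and 4 of 22 in D-CAN had 3 or more germinal centre genes, at median depths of 5761 and 4435.5 UMIs. Cycling cells made up 6.70% (interval 4.83 to 9.01) of control and 3.76% (2.37 to 5.64) of D-CAN cells that met the other terms of the rule, a difference of -2.94 percentage points (-5.64 to -0.289). The share at equal depth was not measured, and the part of depth in this difference was not tested.

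Genes of MHC class II, the molecules with which B cells present peptides to helper T cells, were high and alike in the libraries. All 10 listed genes were measured, none differed 1.5-fold, and the median log2 ratio was 0.01. Cd74, the chain that guides class II molecules through the cell, stood at 8176 CPM in control and 9281 CPM in D-CAN. H2-Aa, the alpha chain of I-A, stood at 2957 and 3048 CPM, and H2-Ab1, its beta chain, at 3550 and 3604 CPM. Ciita, the coactivator of these genes, stood at 212 and 207 CPM. H2-Eb1, the beta chain of I-E, was far lower than the I-A chains, at 175 and 151 CPM. At 1000 UMIs a B cell held a median of 17 UMIs of this list in control and 18 in D-CAN, and a T cell a median of 0 in both.

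Immunoglobulin genes and Jchain showed the highest ratios of D-CAN over control, and 3 cells held most of the difference. Of 12 constant genes, 8 had 100 or more UMIs, and Ighg1 (log2 5.16), Igkc (1.322) and Ighm (0.77) were over 1.5-fold higher in D-CAN and Iglc1 (-0.75) lower, against 3.53% and 2.69% of all genes. Jchain, whose product joins IgM or IgA monomers and which is made by antibody-secreting cells, had a log2 ratio of 4.90. A group of 3 D-CAN B cells, picked out after their values had been seen, held 1451, 913 and 461 Jchain UMIs, while the highest count in any other B cell was 18 in control and 12 in D-CAN. The same cells held 4741, 6161 and 4845 Igkc UMIs. Ighm reached 1478 UMIs in the first of them, with 49 and 0 in the others, and Ighg1 had 0, 1480 and 1425, so the heavy chain UMIs were mostly of Ighm in 1 cell and of Ighg1 in 2. None of the 3 had a UMI of Ighd or Pax5, and immunoglobulin genes and Jchain gave 59.0%, 47.7% and 50.8% of their UMIs. Mzb1, a chaperone of immunoglobulin assembly, had 29, 213 and 59 UMIs in them and Xbp1, the transcription factor of the secretory program, 15, 12 and 25. They passed the rule on Cd79a and Cd79b, with Ms4a1 at 0, 0 and 2 UMIs.

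With these 3 cells left out, which were chosen for their Jchain and all came from D-CAN, the values of the genes they held had to fall in D-CAN and are a description. Igkc then stood at 6488 CPM in control and 6567 CPM in D-CAN (log2 0.02), and Ighm at 1679 and 1959 CPM (0.22). Jchain stood at 59.3 and 18.6 CPM (-1.66) and Ighg1 at 51.3 and 34.7 CPM (-0.56), and Slpi, an inhibitor of proteases, went from 2.84 to -0.39. With the cells that held transcripts of other tissues, described further on, also left out, the 8 immunoglobulin genes had a median of -0.34, with none 1.5-fold higher and 3 lower, Iglc1 (-0.91) and Ighg1 (-0.87) among them, against 58 of 2841 genes lower, and Ighd stood at 0.06. Of the plasma cell list, 4 of 10 genes were measured, and Jchain, Xbp1 and Irf4 were over 1.5-fold higher in D-CAN, against 3.53% of all genes. Irf4, a factor that also follows antigen receptor signals in activated B cells, did not depend on the 3 cells, with 117 CPM in control and 180 CPM in D-CAN (0.62) and 0.65 without them. Xbp1 went from 0.68 to -0.38.

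**Figure D2:**
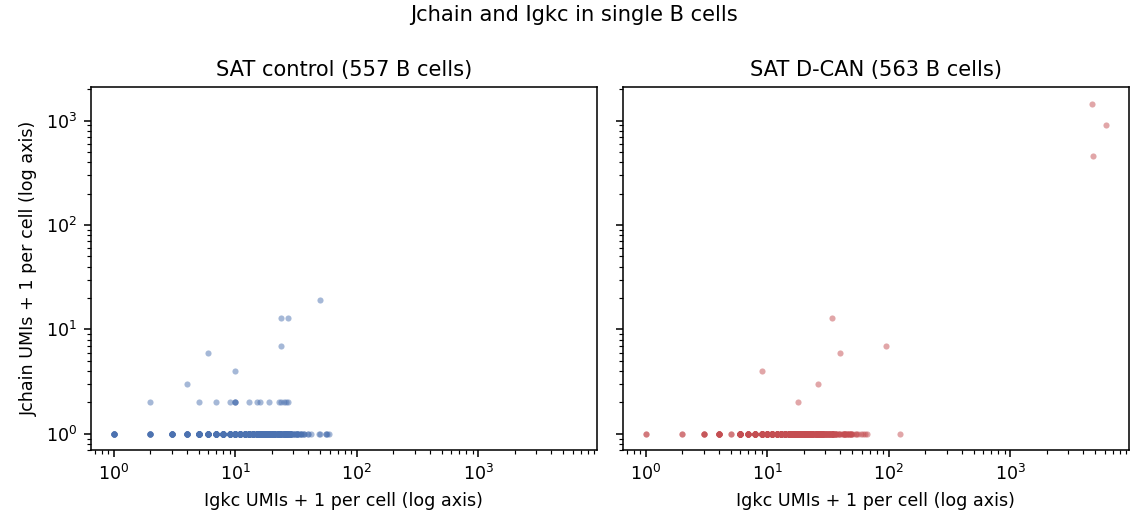
Jchain UMIs + 1 (vertical axis) against Igkc UMIs + 1 (horizontal axis) in each B cell, both on log axes, for 557 SAT control cells (left) and 563 SAT D-CAN cells (right). Each point is 1 cell. A group of 3 D-CAN cells stands at the upper right with 461 to 1451 Jchain UMIs, and no other cell of either library is above 18.

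The heavy chain of most B cells was unswitched. Ighm and Ighd were both detected in 77.6% of control and 86.3% of D-CAN cells as sequenced, and in 54.0% and 54.2% at 1000 UMIs. A switched heavy chain gene had at least 1 UMI in 18.1% of control and 12.1% of D-CAN cells, and 3 or more UMIs in 1.44% and 1.78%. The share at 1 UMI depends on few molecules. At 1000 UMIs, Ighg1 alone was found in 3.56% of control B cells and also in 1.75% of control T cells. The source of these UMIs was not tested. Igha and Ighg2c had no UMI in any B cell, and Ighg3 had 72 control and 65 D-CAN UMIs.

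Light chains were read from both loci in most cells. Igkc was found in 97.0% and 98.4% of B cells at 1000 UMIs, against 6.43% and 1.92% of T cells, and Iglc2, a lambda constant gene, in 66.4% and 59.9%, against 0.19% and 0.17% of T cells. Iglc2 and Iglc3 are near-identical copies, so the division of reads between them is uncertain. As sequenced, 91.9% of control and 91.8% of D-CAN B cells had UMIs of both kappa and lambda constant genes. Among the cells with 5 or more light chain UMIs, Igkc gave a median of 78.1% of them in 530 control cells and 81.5% in 555 D-CAN cells, and 82.5% and 76.6% of the cells lay between 10% and 90%. A mature B cell is known to express 1 light chain as protein. As sequenced, lambda UMIs were present in 2.16% of control and 0.66% of D-CAN T cells, and kappa UMIs in 14.6% and 6.45%. The source of UMIs of both light chains in single B cells was not tested.

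**Figure D3:**
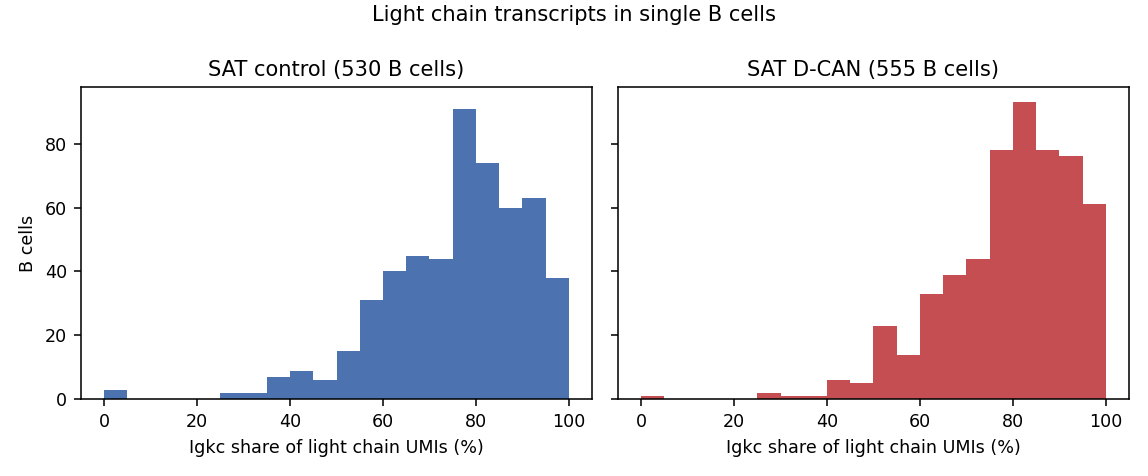
Number of B cells (vertical axis) by the share of their light chain constant gene UMIs that came from Igkc (horizontal axis, percent, in steps of 5), for 530 SAT control cells (left) and 555 SAT D-CAN cells (right) with 5 or more such UMIs. Both histograms have 1 broad peak near their medians of 78.1% and 81.5%, and few cells lie near 0%.

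Some early activation genes were higher in D-CAN B cells, whereas most of the list stayed inside 1.5-fold. Of 23 listed genes, 21 had 100 or more UMIs, and 19 of these had a log2 ratio above 0, with a median of 0.24. Past 1.5-fold were Fosb, Fos, Nr4a1, Myc, Cd83 and Junb, that is 6 of 21 against 3.53% of all genes, and none was 1.5-fold lower. The other 15 did not pass. Most of the list are immediate early genes, which are switched on within minutes of a signal through the antigen receptor and also by stress during the preparation of cells. At 1000 UMIs a control B cell held between 1 and 41 UMIs of the list with a median of 11, and a D-CAN B cell between 1 and 46 with a median of 15, so the spread of the cells overlapped widely. In T cells of the same libraries the median was 10 in both, and the median log2 ratio of the list was 0.08, with 1 of 21 genes at least 1.5-fold higher against 1.14% of the 3869 genes measured in T cells. Summed over the list, B cells held 11644 CPM in control and 15001 CPM in D-CAN, and T cells 9889 and 10619 CPM. The sum was also higher in D-CAN in the other classes. Stromal cells held 6705 and 10880 CPM, endothelial cells 11832 and 16295 CPM and myeloid cells 8960 and 11494 CPM. The higher level was thus not particular to B cells, and the differences between classes were not tested.

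Fosb (chr7:19302696-19310051) and Fos (chr12:85473890-85477273, both GRCm38) encode subunits of the AP-1 transcription factor. Fosb stood at 401 CPM in control and 819 CPM in D-CAN (log2 1.03, interval 0.88 to 1.18), and at 1000 UMIs it was found in 25.7% of control and 45.8% of D-CAN B cells, against 25.7% and 27.4% of T cells. Fos stood at 364 and 719 CPM (0.98, 0.83 to 1.14), with 23.3% and 38.9% of B cells and 36.1% and 35.3% of T cells. Junb, a partner of both, was more abundant at 1743 and 2642 CPM (0.60, 0.53 to 0.68). Nr4a1, an orphan nuclear receptor whose level follows antigen receptor signals, stood at 178 and 330 CPM (0.89, 0.66 to 1.13). Myc, which drives growth before division, stood at 114 and 209 CPM (0.87, 0.59 to 1.17), and Cd83, a surface protein that stabilizes MHC class II on activated B cells, at 427 and 701 CPM (0.71, 0.56 to 0.87). Jun did not follow, with 1224 and 1132 CPM (-0.11), and Egr1, another immediate early gene, stood at 80.2 and 91.2 CPM (0.18, -0.19 to 0.57). Cd69, which holds lymphocytes in tissue, was at 328 and 460 CPM (0.49, 0.31 to 0.67), inside 1.5-fold. In the T cells the log2 ratios were 0.11 for Fosb, 0.03 for Fos, 0.35 for Nr4a1, 0.12 for Myc and -0.06 for Cd83.

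The activation genes were found together in single cells of each library. At 1000 UMIs, Fosb was found in 47.6% of control B cells with Fos and in 19.1% of those without it, and in 54.5% and 40.3% of the D-CAN B cells. Fosb was also more frequent in cells with Ccr7 than without, at 38.8% against 23.4% in control and 55.7% against 41.8% in D-CAN. Ifi27l2a, an interferon-induced gene, showed no such link, since Fosb was found in 26.4% of control cells with it and 25.4% of those without. Cells of 1 library share its handling, so these shares are a description.

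The stretch before the start of 4 of these genes is shown because the genes were higher together and all 4 hold the letters TGACG, the core of the element through which cyclic AMP and calcium signals act on immediate early genes. The sequences are the 250 bases upstream of the RefSeq start in GRCm38.p6, written 5′ to 3′ on the strand of the gene, with TGACG or its reverse complement CGTCA in capitals. Fos is at chr12:85473640-85473889 on the plus strand, Fosb at chr7:19310046-19310295 on the minus strand, Nr4a1 at chr15:101266596-101266845 on the plus strand and Junb at chr8:84978749-84978998 on the minus strand.
Fos: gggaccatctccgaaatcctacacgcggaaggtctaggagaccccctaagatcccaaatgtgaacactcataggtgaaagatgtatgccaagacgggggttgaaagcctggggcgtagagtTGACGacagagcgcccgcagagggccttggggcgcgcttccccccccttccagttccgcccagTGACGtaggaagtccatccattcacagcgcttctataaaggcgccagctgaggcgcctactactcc
Fosb: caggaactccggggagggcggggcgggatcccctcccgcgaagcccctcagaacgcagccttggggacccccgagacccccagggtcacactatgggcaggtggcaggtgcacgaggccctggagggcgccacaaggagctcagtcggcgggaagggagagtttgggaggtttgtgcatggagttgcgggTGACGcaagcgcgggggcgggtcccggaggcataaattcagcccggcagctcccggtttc
Nr4a1: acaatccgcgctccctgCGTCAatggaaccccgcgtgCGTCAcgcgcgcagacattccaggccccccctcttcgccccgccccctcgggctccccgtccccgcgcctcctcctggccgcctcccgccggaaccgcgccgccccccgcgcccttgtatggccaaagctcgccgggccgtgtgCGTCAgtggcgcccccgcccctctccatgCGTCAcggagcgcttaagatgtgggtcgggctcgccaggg
Junb: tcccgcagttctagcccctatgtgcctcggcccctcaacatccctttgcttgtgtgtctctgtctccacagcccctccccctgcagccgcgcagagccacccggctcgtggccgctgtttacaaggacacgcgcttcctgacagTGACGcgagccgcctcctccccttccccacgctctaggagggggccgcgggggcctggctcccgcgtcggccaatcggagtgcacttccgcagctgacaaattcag

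TGACG occurred 2 times in the Fos sequence, 1 time in Fosb, 4 times in Nr4a1 and 1 time in Junb. On either strand, 17.8% of 32851 RefSeq promoters of this length held it. Counted by gene, 5347 of 27025 symbols held it in at least 1 promoter. So did 8 of the 15 activation genes with an entry, which were Nr4a1, Fos, Fosb, Junb, Nfkbid, Dusp1, Btg1 and Btg2. Nfkbid, Dusp1, Btg1 and Btg2 stayed inside 1.5-fold, so the letters did not separate the genes that were higher. Cd69, Cd83, Cd86, Egr1, Egr3, Myc, Ier2 and Ccl4 had no entry. A match of 5 letters is no evidence of a bound site.

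Some receptors that guide B cells through tissue were higher in D-CAN. Of 18 homing genes, 9 were measured, and 2 of these, Ccr7 and Cxcr4, were over 1.5-fold higher in D-CAN, against 3.53% of all genes. CCR7 guides lymphocytes into the T cell zone of lymph nodes, and its gene (chr11:99144196-99155077) stood at 180 CPM in control and 356 CPM in D-CAN (log2 0.98, interval 0.76 to 1.21), with 15% and 28.8% of B cells and 15.6% and 18.7% of T cells at 1000 UMIs. CXCR4 is the receptor of the chemokine CXCL12, and its gene stood at 130 and 240 CPM (0.88, 0.62 to 1.16), with 11.1% and 20.8% of B cells. In T cells the log2 ratios were 0.25 for Ccr7 and 0.42 for Cxcr4. Cxcr5, the receptor for entry into follicles, had 65.7 and 91.2 CPM (0.47, 0.07 to 0.88), and Gpr183, which positions B cells at the edge of follicles, 359 and 465 CPM (0.37, 0.20 to 0.55). S1pr1, which lets lymphocytes leave lymphoid tissue, had 82.6 and 66.8 CPM (-0.31, -0.71 to 0.10), and Cxcr3 had no UMI.

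Of 13 survival genes, 9 were measured and 2 were over 1.5-fold higher in D-CAN, against 3.53% of all genes, and none was lower, against 2.69%. Bcl2a1b, of the BCL2 family that blocks cell death and is induced by NF-kappaB, stood at 218 CPM in control and 482 CPM in D-CAN (1.14, 0.94 to 1.35) and at log2 0.20 in T cells. Its copies Bcl2a1a and Bcl2a1d are nearly identical, so the assignment of reads among them is uncertain, and Bcl2a1d had 18 and 49 UMIs. Pim1, a kinase of cytokine signalling, stood at 93.8 and 144 CPM (0.61, 0.29 to 0.95). The receptors of the survival factor BAFF were level, with Tnfrsf13c at 224 and 237 CPM and Tnfrsf13b at 130 and 122 CPM, and Bcl2 stood at 130 and 118 CPM.

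Some interferon-induced genes were lower in D-CAN B cells, and most of the list was too low to measure. Of 19 listed genes only 5 had 100 or more UMIs, all 5 had a log2 ratio below 0 with a median of -0.71, and 3, Ifi27l2a and Ly6a among them, were at least 1.5-fold lower, against 2.69% of all genes. Ifi27l2a (chr12:103442167-103443680), whose product is a small membrane protein, stood at 696 CPM in control and 249 CPM in D-CAN (-1.48, -1.66 to -1.31), and was found in 34.2% and 18.1% of B cells at 1000 UMIs. Ly6a, a surface protein also made by endothelial and stromal cells, stood at 156 and 94.9 CPM (-0.71, -1.03 to -0.40). Ifi203 was at -0.51 and Ly6e at -0.14, both inside 1.5-fold. Below the minimum, Irf7, the factor that amplifies the response, had 50 control and 33 D-CAN UMIs, and Iigp1 had 13 and 0. The T cells were lower as well, with 10 genes measured, 5 at least 1.5-fold lower against 1.52% of all genes, and a median of -0.58, with Ifi27l2a at -1.18 in them.

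The 9 listed genes of the heat shock response, which cell handling can also raise, were all inside 1.5-fold. All 9 were measured, and the ratios ran from -0.33 for Hspa1a (2730 and 2169 CPM) to 0.28 for Hspa8 (1872 and 2266 CPM). Hspb1, a heat shock gene that is not on this list, was lower in D-CAN, at log2 -2.21. It was at -1.29 without the Jchain-rich cells and the cells that held transcripts of other tissues. Hspa1a and Hspa1b are near-identical copies, and the latter stood at 1098 and 926 CPM. The part of cell handling in the activation genes was not tested. Among 10 cytokine genes, 3 were measured and none passed 1.5-fold, namely Ltb at 758 and 668 CPM, Tgfb1 at 150 and 146 CPM and Il12a at 49.7 and 55.6 CPM. Ltb encodes lymphotoxin beta, which maintains the stroma of lymphoid organs. Il10, the cytokine of regulatory B cells, and Tnfsf13b, the gene of BAFF, had no UMI in any B cell. Of 12 cell cycle genes outside the rule, 3 were measured and none passed 1.5-fold, with a median of 0.09.

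**Figure D4:**
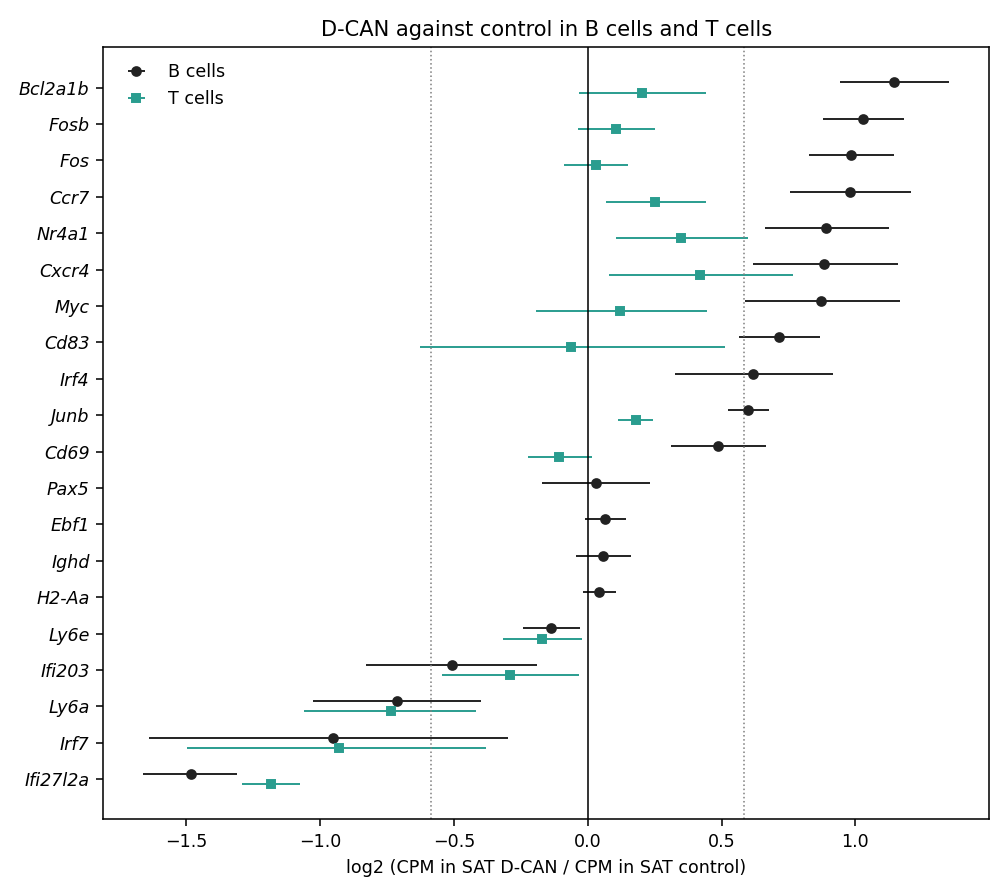
Log2 ratio of CPM in SAT D-CAN over SAT control (horizontal axis) for activation, homing, survival, B lineage and interferon genes (vertical axis), in B cells (circles) and in T cells (squares, where they had 100 or more UMIs). Lines are 95% counting intervals with no replicate error, and dotted lines mark 1.5-fold. Fosb, Fos and Ccr7 lie near 1 in B cells and below 0.3 in T cells, and Ifi27l2a lies below -1 in both.

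Over all genes measured, the highest ratios of D-CAN over control were those of Ighg1, Jchain, Slpi and Igkc, followed by Siah2 (1.20), Bcl2a1b, Fosb, Cks2 (1.01), Per1 (1.003) and Fnip1 (0.997). Cks2 encodes a subunit of cyclin-dependent kinases. Siah2, a ubiquitin ligase, had 45 control and 134 D-CAN UMIs in 43 and 111 cells. Per1, a gene of the circadian clock that is also an immediate early gene, had 44 and 114 UMIs in 37 and 99 cells. These counts were spread over many cells, unlike those of Jchain. At the low end stood Sparc (-4.07), Igfbp7 (-3.94), Rbp7 (-3.78), Fabp4 (-3.38), Hba-a1 (-3.32), Cd36 (-3.21), Mgll (-2.95), Hbb-bs (-2.26), Hspb1 (-2.21) and Ifitm3 (-1.98), most of which are genes of endothelial cells, adipocytes or red blood cells.

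Much of the control level of these low genes sat in a few cells. The 10 endothelial genes summed to 1128 CPM in control and 185 CPM in D-CAN B cells, with Fabp4 and Pecam1 the most abundant, against 39511 and 41646 CPM in endothelial cells. The 10 stromal genes summed to 204 and 83.7 CPM, with Gsn the most abundant, and the 6 red cell genes to 283 and 43.1 CPM, with Hbb-bs the most abundant. A group of 22 control (3.95%) and 6 D-CAN (1.07%) B cells, again picked out after the values had been seen, had 5 or more UMIs of these 3 lists and held 82.4% and 17.2% of their UMIs. Fabp4, the fatty acid carrier of adipose capillaries and adipocytes, reached 252 UMIs in 1 control cell. Without these cells, whose choice lowers such genes, Fabp4 stood at 66.4 and 40.6 CPM and Igfbp7 at 4.20 and 4.44 CPM, and Hbb-bs was higher in D-CAN (1.39). With both groups of cells left out, 535 control and 554 D-CAN cells remained, and Fos (1.05), Fosb (1.04), Ccr7 (0.98) and Ifi27l2a (-1.52) stood close to the ratios over all cells. The activation list then had a median of 0.37, with 6 genes at least 1.5-fold higher, against 110 of all 2841 genes measured. The interferon list had a median of -0.57, with 2 of its 5 genes at least 1.5-fold lower, against 58 of the 2841.

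Markers of other leukocytes were low in the B cells. The 15 T cell genes summed to 71.3 CPM in control and 53.7 CPM in D-CAN, against 4960 and 5153 CPM in T cells. Lck was the most abundant. In control 2 of the 15, Thy1 and Cd4, had no UMI, and in D-CAN 4 had none, among them Thy1, Trac and Cd8a. The 9 natural killer cell genes summed to 34.5 and 16.2 CPM, with Ccl5 the most abundant and 3 of the 9 at 0 in each library, Klrb1c and Klre1 among them. The 14 myeloid genes summed to 635 and 420 CPM, against 19223 and 22122 CPM in myeloid cells, and Cst3, which many cell types express, gave most of it, at 580 and 375 CPM (-0.63), with 156 of its UMIs in 1 control cell. In each library 4 of the 14 were at 0, Cd14, Clec4e and S100a8 among them. Of the 10 dendritic cell genes, which summed to 321 and 247 CPM, Bcl11a was the most abundant and is also a gene of B cells. The part of transcripts from other cells in the results above was not tested, beyond the values given without the marked cells.

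Heat shock and activation genes were among those that varied most from cell to cell. The Fano factor, the variance over the mean of cells thinned to 1000 UMIs, had a median of 1.01 over 840 genes, near the value of pure counting noise. It was highest for Malat1, a nuclear RNA, at 5.82 in control and 5.68 in D-CAN, then for Hspa1a (3.98 and 5.10) and Slamf1 (3.06 and 2.87). The ranking used the lower of both libraries. Junb (2.27 and 2.33), Jun (2.36 and 1.89) and Fos (1.95 and 1.88) were among the highest 10. Igkc reached 74.8 in D-CAN, the library with the 3 Jchain-rich cells, and 2.14 in control. Slamf1, a receptor of lymphocyte adhesion, was found in 86 control and 69 D-CAN cells with up to 17 and 15 UMIs in a cell, and stood at 233 and 96.2 CPM (-1.28, -1.57 to -0.99). In T cells its ratio was 0.37.

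The share of B cells depended on the denominator. They made up 19.6% (interval 18.2 to 21.1) of control and 29.7% (27.6 to 31.8) of D-CAN SAT cells, a difference of 10.1 percentage points (7.53 to 12.6). T cells differed in the same direction, from 19.6% to 31.9%, and stromal and endothelial cells in the other, from 7.71% to 3.90% and from 10.8% to 7.49%. Among leukocytes, B cells made up 37.5% (35.0 to 40.0) of 1485 and 39.6% (37.0 to 42.2) of 1422, a difference of 2.08 points (-1.50 to 5.67). Among B and T cells together they were 557 of 1113 and 563 of 1168, a difference of -1.84 points (-6.00 to 2.32). Shares of a suspension add up to 100%, so more B cells and fewer other cells cannot be told apart. The libraries also differed in depth, as the median SAT cell held 1707 UMIs in control and 2950 in D-CAN. With the rule applied to cells thinned to 1000 UMIs, the shares were 19.6% and 22.0% and the difference 2.49 points (-0.19 to 5.18). Thinning also left cells under 1000 UMIs out of the denominator, among them 105 of 219 control and 5 of 74 D-CAN stromal cells. This setting therefore changes both the depth and the cells counted, and their parts were not separated.

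**Figure D5:**
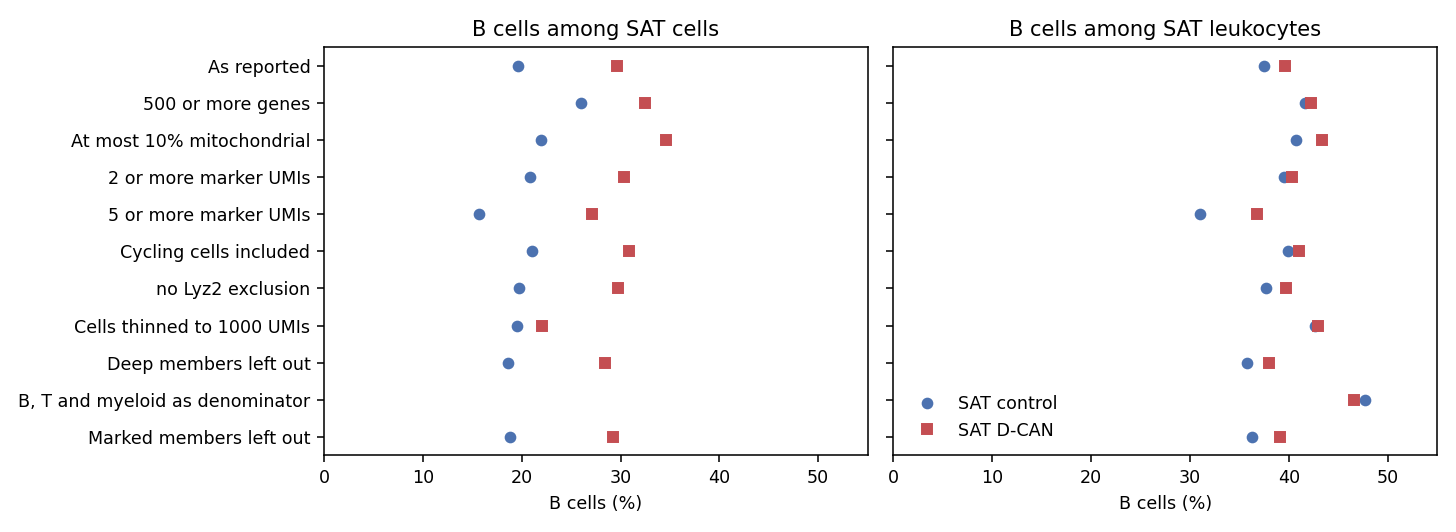
Share of B cells (horizontal axis, percent) among all SAT cells (left) and among SAT leukocytes (right) in the control (circles) and D-CAN (squares) library, with 1 line per setting of the rule or of the cell filter. Among all cells D-CAN is higher on every line shown, from 2.49 points with cells thinned to 1000 UMIs to 12.7 points with at most 10% mitochondrial UMIs. Among leukocytes the libraries lie within 6 points of each other, and control is higher when B, T and myeloid cells form the denominator.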

How the data were processed

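The authors deposited a matrix of raw UMI counts for each of the 4 libraries, limited to barcodes called as cells and not normalized. The submitters' processing notes name Cell Ranger 3.1.0 and STAR 2.6, the file of the SAT D-CAN library names Cell Ranger 3.0.2 and the others 3.1.0, and the study's methods give the mm10 build with Ensembl 93 genes (31053 in each table). No columns of other samples were present (0 left unused).

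Cells with 200 or more genes were kept. UMIs were summed over B cells, and log2 ratios of CPM were taken with 0.5 UMI added, for genes with 100 or more UMIs over both libraries. The intervals of sums and ratios are exact Poisson ones, and those of shares Clopper-Pearson. For a difference of shares, both exact intervals were joined by squaring and adding. UMIs are not fully independent molecules after PCR, so intervals and the limit for a count of 0 (3 counts) cover counting error only. Python 3.11.15, numpy 2.4.6, scipy 1.17.1 and pandas 2.3.3 were used, and the steps were tested on simulated data. Promoters are from RefSeq (GRCm38.p6) and gene positions from GENCODE vM21 (GRCm38).

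The members and gene lists were chosen with earlier results of these data known. Genes named are those of the lists, the 10 highest and 10 lowest ratios of D-CAN over control, the 20 highest and 10 lowest over other leukocytes, and the 10 highest Fano factors. Some genes of the lists are not reported here. Groups were taken from the labels. The alternatives were other cell and gene filters, scalings, rule thresholds, thinning, reference classes and leaving out deep cells or cells with a shared barcode. Leaving out the 3 cells rich in Jchain and the cells with endothelial, stromal or red cell UMIs, and thinning the chain classes, were added after the data had been seen.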

Additional observations from a re-analysis of the deposited data

Results flagged for a closer look

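Among the 10 highest and 10 lowest ratios of D-CAN over control in B cells, 3 genes had counting intervals on opposite sides of 0 in B cells and in T cells of the same libraries. Slamf1, which is outside those ranks, had ratios of opposite sign (-1.28 in B cells and 0.37 in T cells), with a T cell interval that includes 0. The difference was not tested for any of them, since each class has 1 library per group. Ighg1 had a log2 ratio of 5.16 in B cells and -2.55 in T cells, and Igkc had 1.322 and -2.12. Both rest on the 3 D-CAN B cells rich in Jchain, as they stood at -0.56 and 0.02 in B cells without them. Igfbp7, a gene of vascular cells, had -3.94 in B cells and 1.87 in T cells, and it stood at 0.04 when the B cells with 5 or more endothelial, stromal and red cell UMIs were left out.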

How the results depend on the processing

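No paired analysis was possible because there is 1 library per group and the labels give no replicate numbers. No result has a replicate check, so the D-CAN treatment and the library cannot be told apart.

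The difference in the share of B cells among SAT cells was 6.52 points with 500 or more genes per cell, 12.7 with at most 10% mitochondrial UMIs and 2.49 with the rule applied at 1000 UMIs. Among leukocytes it was 5.77 with 5 or more marker UMIs, where the interval (2.24 to 9.29) lay above 0, and below 0 only with B, T and myeloid cells as the denominator (-1.08). Genes 1.5-fold higher and lower numbered 105 and 80 as reported, 204 and 280 with 50 or more UMIs per gene, 56 and 23 with 200 or more, and 48 and 16 at 1000 UMIs, where fewer genes were tested. Median-of-ratios scaling gave 136 and 61, which moved the higher share of these genes from 56.8% to 69.0%. Without both marked groups of cells the counts were 110 and 58. Genes 2-fold lower than in other leukocytes numbered 356 as reported, 218 against T cells, 137 against myeloid cells and 590 with 50 or more UMIs.

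At 1000 UMIs the difference for cells with kappa and lambda was -8.19 points and for Ighm with Ighd 0.16. With 3 or more UMIs the latter was 16.7, and that for a switched heavy chain turned from -6.05 to 0.34.

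These named genes reversed. Hbb-bs was 0.53 at 1000 UMIs. Without cells over 2 times the median depth, Ighg1 was -0.40, Jchain -1.18, Slpi -1.43 and Igkc -0.029. Without the Jchain-rich cells, Ighg1 was -0.56, Jchain -1.66 and Slpi -0.39. Without the cells with endothelial, stromal or red cell UMIs, Igfbp7 was 0.0415, Rbp7 0.73, Hba-a1 1.10 and Hbb-bs 1.39. Without both kinds, Ighg1 was -0.87, Jchain -2.43, Slpi -0.36, Igkc -0.027, Igfbp7 0.083, Rbp7 0.77, Hba-a1 1.14 and Hbb-bs 1.40.

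Fos, Fosb, Junb, Nr4a1, Myc, Cd83, Ccr7, Cxcr4, Bcl2a1b and Ifi27l2a kept their direction and stayed past 1.5-fold in all 13 alternatives, with Fosb from 1.01 to 1.15 and Ifi27l2a from -1.55 to -1.43. Irf4 (0.56 to 0.92) kept its direction in all 13 and stayed past 1.5-fold in 12.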

Other observations

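The SAT libraries also held a few cells with genes of lymph node vessels and stroma. These cells were not set aside, so they count among the SAT cells in the shares above. A list of such genes, which also holds Cr2, summed to 107 CPM in control and 2385 CPM in D-CAN stromal cells. In endothelial cells it summed to 470 and 1149 CPM, so such cells are also part of those classes. Glycam1, a mucin made by the high endothelial vessels of lymph nodes, had 10 or more UMIs in 13 control cells (0.458%) and 4 D-CAN cells (0.211%), with up to 133 and 875 UMIs in 1 cell. Cxcl13, the chemokine that draws B cells into follicles, had a UMI in 26 control and 33 D-CAN cells, with 240 and 1168 UMIs in all. Up to 101 and 347 of these sat in 1 cell, so the sums of the list can rest on few genes in few cells. Ccl21a, the ligand of CCR7 made by lymph node stroma, had 5 and 12 UMIs. Whether lymph node tissue was part of the dissected fat is not given in the sources used here, and its part in the number or state of the B cells was not tested.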
